A study of Mus musculus with 12 samples.

Results

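The genes described here are 10 genes of the growth hormone and STAT5 axis in mouse liver, taken by name from the 16346 genes with a deposited value: the receptor *Ghr*, the transcription factor *Stat5b*, the repressors *Bcl6* and *Cux2*, the feedback inhibitors *Socs2* and *Cish*, the secreted products *Igf1* and *Igfals*, and *Hsd3b5* and *Selenbp2*, which are known from male mouse liver. All 10 were found by symbol, and all 10 passed the filter used for testing (a mean normalized read count of at least 10, met by 12366 genes) in each genotype. They were chosen by their differences in level between the genotypes in these same libraries. Differences between genotypes are therefore given for them as a description, without a test. Tests are kept for feeding and for how feeding responses differed between genotypes. A difference in response is itself a difference between genotype differences, so its p-values are not free of that choice of genes.

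Liver RNA was sequenced from 12 mice, 2 in each of 6 groups. Control mice carried the floxed *Med13* gene without Cre (Med13fl/fl). Mice labelled MED13-LKO carried the same floxed gene with a Cre transgene driven by the albumin promoter, a knockout that the paper calls hepatocyte-selective. MED13 is a subunit of the kinase module of Mediator, the large complex through which transcription factors reach the polymerase, and both genotypes were on a C57BL/6J background at 12 weeks of age. In each genotype, 1 group was fasted for 16 h, 1 group was fed chow for 4 h after the fast with 30% sucrose in the drinking water, and 1 group was fed in the same way with 30% fructose. Fasted mice were killed in the morning and fed mice after noon, so feeding and time of day cannot be told apart. The sex of the mice is not in the labels. No source says which mice shared a litter, and bulk liver RNA cannot tell fewer cells of a type from less RNA per cell.

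Growth hormone binds its receptor on hepatocytes, the receptor activates the kinase JAK2, and JAK2 phosphorylates STAT5 proteins, which enter the nucleus and bind DNA. STAT5B induces *Igf1* and *Igfals*, whose products carry the growth signal in blood, and it induces *Socs2* and *Cish*, whose products dampen the receptor's own signal. In mice the pituitary releases growth hormone in pulses in males and more evenly in females, and the liver reads this difference through STAT5B. BCL6 is a repressor that is enriched in male liver and competes at STAT5 sites, and CUX2 is a repressor that is enriched in female liver.

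STAT5 dimers bind the palindrome TTCNNNGAA, which reads the same on both strands. The windows from 250 bases before to 50 bases after RefSeq start sites (GRCm38.p6) were searched for these letters. The motif was present in 8.3% of 32851 windows and in 9.55% of the 27025 genes with a window. Of the 10 genes 9 had a window, and 3 of those 9 (*Bcl6*, *Cish* and *Igfals*) held the motif, which is a description of these letters and not of binding. The stretches below are all those with the motif in the windows of the 10 genes. The same 3 genes were called in the averaged test of feeding described further on, and a link between the motif and feeding was not tested. The motif is in capitals, and each sequence runs 5′ to 3′ along the strand of its gene.
*Cish*, chr9:107296654-107296683, plus strand, in an exon and UTR of the gene, with motifs that begin at the first base of the transcript and at base 12: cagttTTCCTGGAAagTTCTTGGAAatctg
*Bcl6*, chr16:23981358-23981456, minus strand, upstream of an internal start site and in an intron of the longer transcript, with motifs at bases -168, -122 and -88 from that start: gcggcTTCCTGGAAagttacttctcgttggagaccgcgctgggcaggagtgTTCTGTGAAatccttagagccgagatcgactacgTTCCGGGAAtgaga
*Bcl6*, chr16:23988957-23988975, minus strand, upstream of the gene, with a motif at base -118: attagTTCTCAGAAttcca
*Igfals*, chr17:24878168-24878186, plus strand, in an intron, with a motif at base -58: aggtgTTCCTAGAAgaggc
*Igfals*, chr17:24877603-24877621, plus strand, in an intron, with a motif at base -236 of another start: ataatTTCTCAGAAaagag
The *Cish* stretch held its pair of motifs with 2 bases between them.

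Several facts of the whole series bear on these genes. The normalized counts summed to between 21060000 and 24150000 in the control libraries and to between 17310000 and 18740000 in each library labelled MED13-LKO, and the reads counted on genes were estimated at 16110000 to 24210000 in a library. *Med13* itself was not lower under the MED13-LKO label. It had between 578 and 796 normalized read counts in control mice and between 646 and 1055 in mice labelled MED13-LKO, a log2 difference of 0.22 (SE 0.11) with an adjusted p of 0.201. The files sum the gene over all its exons and do not resolve the floxed part, so this value does not check the deletion, and directions between genotypes below rest on the labels. The Y-linked genes *Ddx3y*, *Eif2s3y*, *Kdm5d* and *Uty* were expressed in all 12 libraries, with *Ddx3y* between 1450 and 1865. The 6 hepatocyte markers, *Alb* and *Cps1* among them, were all present and summed to between 2372940 and 3037450 in control mice and to between 1779160 and 2137850 in mice labelled MED13-LKO, ranges that did not overlap, and 5 of the 6 were called lower (1 lower and 1 higher with libraries rescaled to equal sums). The 6 Kupffer cell markers summed to between 3528 and 4861 and to between 4450 and 5836, with 1 called higher (6 with equal sums), and the 6 endothelial markers to between 3831 and 4602 and to between 4524 and 5919, with 4 called higher (6 with equal sums). Of the stellate cell markers 2 of 6 were lower (with equal sums 3 were higher and 0 lower), of the bile duct markers 1 of 4 tested was lower (with equal sums 1 was higher and 0 lower), and the only lymphocyte marker of 6 that passed the filter was higher. Of all genes tested, 13.2% were called lower and 12.1% higher in this comparison, averaged over the feeding states (405 and 7109 of 12366 with equal sums). For 4.93% of all genes every mouse labelled MED13-LKO was below every control mouse. None of the cell type markers was at 0 in all libraries, and their part in the differences below was not tested. With all libraries rescaled to equal sums, the median difference between genotypes over all genes moved from 0.01 to 0.32 on the log2 scale, and the share of called genes that were higher moved from 47.7% to 94.6%. For feeding, averaged over sugars and genotypes, the same rescaling moved the median from -0.01 to 0.10 and that share from 49.3% to 76.8%. That scaling was chosen after seeing the data, and it adds about the same amount to each difference between genotypes given here. In the library of control fructose mouse 1, *Hsd3b5*, *Selenbp2* and *Socs2* lay far above the other control mouse on fructose, so the differences of these 3 genes that rest on it are given with and without it. The 2 mice also lay far apart for genes of other lists. *Mup7* (467425 against 111473) and *Serpina12* (862 against 224) were higher in mouse 1, and *Nr1i3* (3321 against 7077) was lower. The differences of such genes further on include mouse 1.

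All differences are on the scale log2(normalized read count + 1), with the standard error of a linear model fitted in limma to all 12 libraries, and the adjusted p-values are from the same limma fit with Benjamini-Hochberg adjustment over 12366 genes. In control mice the medians per kilobase of the longest coding transcript were highest for *Ghr* (2790 normalized read counts per kilobase), *Igf1* (1604) and *Selenbp2* (1552). *Hsd3b5* followed at 815, *Igfals* at 396, *Cish* at 220, *Stat5b* at 163 and *Bcl6* at 109, and *Socs2* (75.3) and *Cux2* (8.94) were lowest.

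**Figure D1:**
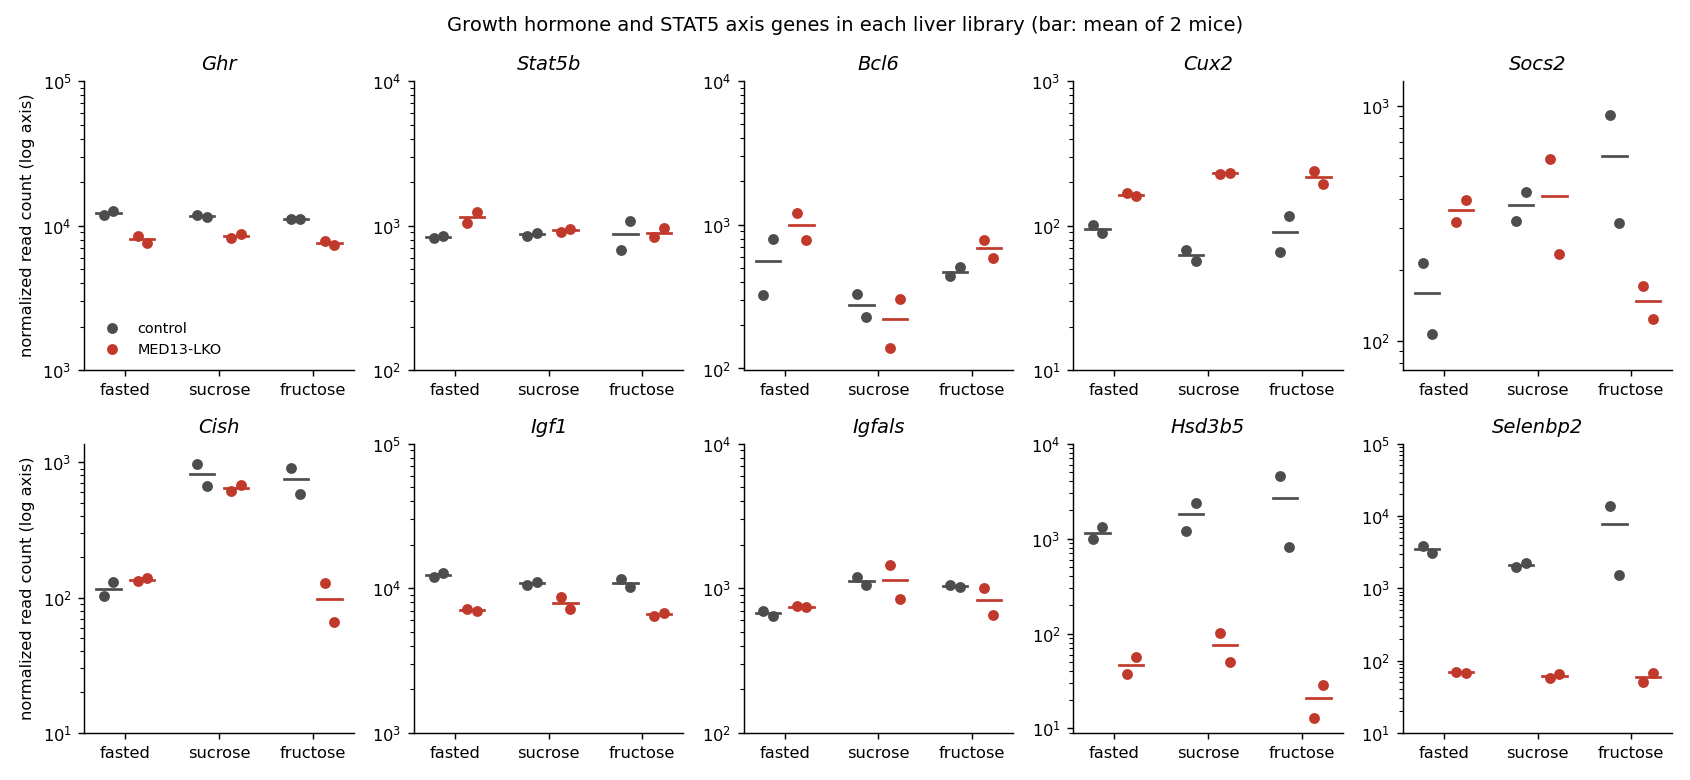
Normalized read counts of the 10 genes (log axis) in each of the 12 libraries by feeding state, with control mice in grey and mice labelled MED13-LKO in red; each point is 1 mouse and each bar the mean of 2 mice. *Hsd3b5* and *Selenbp2* separate the genotypes in every feeding state, and *Cish* is low with fructose in the mice labelled MED13-LKO only.

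The receptor of the axis was present at a lower level in the mice labelled MED13-LKO. *Ghr* (ENSMUSG00000055737, GRCm38 chr15:3317760-3583492, minus strand) encodes the growth hormone receptor. In control mice it had 11820 and 12670 normalized read counts in the fasted state, 11756 and 11538 after sucrose, and 11195 and 11046 after fructose. Under the MED13-LKO label it had 8522 and 7611 in the fasted state, 8263 and 8686 after sucrose, and 7769 and 7326 after fructose. Every mouse labelled MED13-LKO was below every control mouse, and the spread within a group was small beside that gap. The log2 difference was -0.60 fasted, -0.46 with sucrose and -0.56 with fructose (SE 0.08 each), and -0.54 (SE 0.05) averaged over the feeding states, that is 1.45-fold lower. With libraries rescaled to equal sums it was -0.22. The level hardly moved with feeding: the log2 difference of fed from fasted mice, averaged over both sugars and genotypes, was -0.06 (SE 0.05, adjusted p = 0.428 in limma).

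*Stat5b* (ENSMUSG00000020919, GRCm38 chr11:100780731-100850724, minus strand), which encodes the main growth hormone-responsive STAT of liver, differed little. Control mice had 819 and 850 normalized read counts in the fasted state, 848 and 889 after sucrose, and 677 and 1083 after fructose, and mice labelled MED13-LKO had 1048 and 1246, 910 and 944, and 831 and 960. The fasted mice labelled MED13-LKO were above the fasted controls and the genotypes overlapped with fructose. The log2 difference averaged over the feeding states was 0.20 (SE 0.11). Of the 31-base subsequences of *Stat5b* 15.2% also occur elsewhere, nearly all with *Stat5a*, so reads can be divided between the pair. *Stat5a*, its close relative, had a log2 difference of 0.39 (SE 0.18, adjusted p = 0.141) and was not called, and neither was the kinase gene *Jak2*, with 0.04 (SE 0.08, adjusted p = 0.748). No feeding comparison called *Stat5b*: its response was 0.06 with sucrose and 0.04 with fructose in control mice, and -0.30 and -0.36 in mice labelled MED13-LKO (SE 0.18 each).

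Of the secreted products, *Igf1* was lower under the MED13-LKO label and *Igfals* was not. *Igf1* (ENSMUSG00000020053, GRCm38 chr10:87858265-87937042, plus strand) encodes insulin-like growth factor 1, most of which circulates from the liver. It had 11957 and 12692 normalized read counts in fasted control mice, 10600 and 11074 after sucrose, and 11551 and 10144 after fructose. Its values under the MED13-LKO label were 7229 and 6979 in the fasted state, 8720 and 7218 after sucrose, and 6463 and 6787 after fructose. As with *Ghr*, no mouse labelled MED13-LKO reached the lowest control mouse. The log2 difference was -0.79 fasted, -0.45 with sucrose and -0.71 with fructose (SE 0.10 each), and -0.65 (SE 0.06) on average, or 1.57-fold lower; with equal sums it was -0.33. Feeding did not move it detectably, with an average response of -0.08 (SE 0.06, adjusted p = 0.397 in limma).

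*Igfals* (ENSMUSG00000046070, GRCm38 chr17:24865997-24882010, plus strand) encodes the acid-labile subunit, which holds IGF1 and its binding protein in a stable complex in blood. Control mice had 695 and 648 normalized read counts in the fasted state, 1189 and 1054 after sucrose, and 1062 and 1023 after fructose, and mice labelled MED13-LKO had 752 and 745, 1444 and 850, and 1008 and 658. All 4 fed control mice were above all 4 fasted mice of both genotypes, and 3 of the 4 fed mice labelled MED13-LKO were below every fed control mouse. The 2 sugars and genotypes together gave a rise with feeding of 0.51 on the log2 scale (SE 0.14, adjusted p = 0.0293 in limma), and this call was lost (adjusted p = 0.0585 to 0.101) when any 1 of 5 libraries was left out: either fasted control mouse, either fasted mouse labelled MED13-LKO, or control sucrose mouse 1. The separate responses were 0.74 with sucrose and 0.63 with fructose in control mice and 0.57 and 0.12 in mice labelled MED13-LKO (SE 0.24 each), none of them called. The log2 difference between genotypes was -0.07 (SE 0.14).

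The feedback inhibitor *Cish* showed the clearest response to feeding among the 10 genes, and with fructose the genotypes differed widely. *Cish* (ENSMUSG00000032578, GRCm38 chr9:107296026-107302784, plus strand), whose product blocks STAT5 docking on activated receptors, had 104 and 130 normalized read counts in fasted control mice, 980 and 670 after sucrose, and 910 and 584 after fructose. The mice labelled MED13-LKO had 132 and 139 in the fasted state, 612 and 676 after sucrose, and 129 and 66.1 after fructose. The fed mice were thus far above the fasted mice in 3 of the 4 comparisons, while the fructose-fed mice labelled MED13-LKO stayed at or below the fasted level.

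Tested against the fasted state in limma, *Cish* rose with sucrose by 2.80 log2 units in control mice (SE 0.31, adjusted p = 0.000807, 6.95-fold) and in mice labelled MED13-LKO by 2.24 (SE 0.31, adjusted p = 0.00398, 4.72-fold). With fructose it rose in control mice by 2.64 (SE 0.31, adjusted p = 0.00291, 6.25-fold). In mice labelled MED13-LKO the response to fructose was -0.55 (SE 0.31, adjusted p = 0.322) and was not called. The 3 called rises passed in all 19 alternative settings, with adjusted p no higher than 0.042.

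The sugars were also compared directly. In mice labelled MED13-LKO, *Cish* was lower with fructose than with sucrose by a log2 difference of -2.79 (SE 0.31, adjusted p = 0.0177 in limma), 1 of only 5 genes called in that comparison. That call held in 14 of 19 alternative settings, and it was lost in a fit without the other groups (adjusted p = 0.0918) or without either fasted or either sucrose-fed mouse labelled MED13-LKO (adjusted p = 0.0591 to 0.177). In control mice the same comparison gave -0.15 (SE 0.31, adjusted p = 0.933). The difference in response to fructose between genotypes was -3.19 (SE 0.44, adjusted p = 0.0677 in limma) and was not called. Its adjusted p was under 0.05 in 4 of 19 alternative settings, over which it ranged from 0.0183 to 0.29. The difference in response to sucrose was -0.56 (SE 0.44, adjusted p = 0.784). Of the 31-base subsequences of *Cish* 10.4% also occur in other genes, chiefly *Gm17041* and *Gm17040*, which overlap it on the opposite strand, and how the reads were assigned by strand is not given in the sources used here.

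*Socs2* (ENSMUSG00000020027, GRCm38 chr10:95385362-95417180, minus strand), which encodes a feedback inhibitor that promotes turnover of the growth hormone receptor, had a wider spread between mice. Control mice had 213 and 107 normalized read counts in the fasted state, 322 and 430 after sucrose, and 908 and 317 after fructose, and mice labelled MED13-LKO had 319 and 397, 594 and 234, and 171 and 124. With fructose both mice labelled MED13-LKO were below both control mice, and when fasted both were above them. The response to fructose was 1.82 in control mice (SE 0.54, adjusted p = 0.0796 in limma) and -1.28 in mice labelled MED13-LKO (SE 0.54, adjusted p = 0.189), and neither was called. The difference between these responses was -3.11 (SE 0.76), with an unadjusted p of 0.00216 and an adjusted p of 0.286 in limma, and was not called. Without control fructose mouse 1 the response in control mice was 1.06 (adjusted p = 0.321 in limma) and the difference between the responses -2.35 (adjusted p = 0.279). Without control fructose mouse 2 they were 2.58 (adjusted p = 0.0196) and -3.87 (adjusted p = 0.061), so the first was called. Without mouse 1 the log2 difference between genotypes with fructose moved from -1.88 to -1.12, and averaged over the feeding states it moved from -0.21 (SE 0.31) to 0.04.

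**Figure D2:**
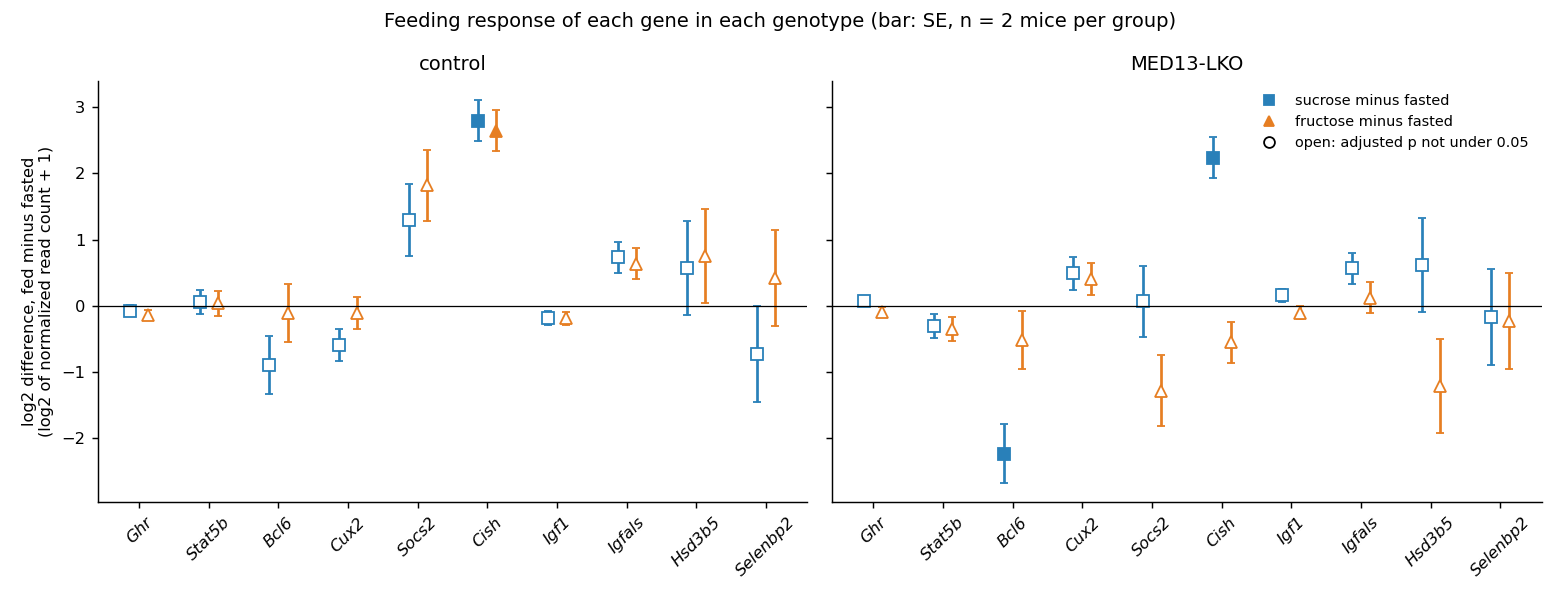
Log2 difference of sucrose-fed (squares) and fructose-fed (triangles) from fasted mice for the 10 genes, in control mice (left) and in mice labelled MED13-LKO (right), with standard errors from limma; filled symbols are called at an adjusted p under 0.05. *Cish* is filled for both sugars in control mice and for sucrose only in mice labelled MED13-LKO, where *Bcl6* with sucrose is the other filled symbol.

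The repressors differed from each other. *Cux2* (ENSMUSG00000042589, GRCm38 chr5:121856366-122050102, minus strand) was higher in every mouse labelled MED13-LKO. In control mice it had 100 and 88.8 normalized read counts in the fasted state, 68.3 and 56.9 after sucrose, and 66.0 and 116 after fructose. Under the MED13-LKO label it had 167 and 159, 229 and 230, and 239 and 195. The lowest mouse labelled MED13-LKO was above the highest control mouse, by log2 differences of 0.78 fasted, 1.86 with sucrose and 1.30 with fructose (SE 0.24 each). Averaged over the feeding states the difference was 1.31 (SE 0.14), that is 2.49-fold. The response to feeding was -0.59 with sucrose in control mice and 0.49 in mice labelled MED13-LKO (SE 0.24 each), neither of them called, and their difference was 1.08 (SE 0.34) with an unadjusted p of 0.0105 and an adjusted p of 0.419 in limma.

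*Bcl6* (ENSMUSG00000022508, GRCm38 chr16:23965052-23988852, minus strand) moved with feeding and not in 1 direction with genotype. Control mice had 325 and 792 normalized read counts in the fasted state, 329 and 226 after sucrose, and 437 and 508 after fructose, and mice labelled MED13-LKO had 1203 and 787, 139 and 305, and 783 and 590. The values of the 2 fasted control mice lay far apart, and the genotypes overlapped both fasted and with sucrose. With sucrose *Bcl6* fell in mice labelled MED13-LKO by 2.23 on the log2 scale (SE 0.44, adjusted p = 0.019 in limma, 4.7-fold lower), and the response in control mice was -0.89 (SE 0.44, adjusted p = 0.247). With fructose the responses were -0.11 in control mice (adjusted p = 0.914) and -0.52 in mice labelled MED13-LKO (adjusted p = 0.535), and neither was called. The sucrose call was lost without either fasted mouse or without sucrose mouse 1 of that genotype (adjusted p = 0.0601 to 0.124). Averaged over sugars and genotypes *Bcl6* fell by 0.94 (SE 0.27, adjusted p = 0.034 in limma), a call that was lost without any 1 of 7 libraries (adjusted p = 0.0524 to 0.146): control fasted mouse 2, control sucrose mouse 2, control fructose mouse 1, either fasted mouse, sucrose mouse 1 or fructose mouse 2 labelled MED13-LKO. The log2 difference between genotypes was 0.35 (SE 0.26). The gene overlaps *Gm37419* on the opposite strand.

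The male-associated genes *Hsd3b5* and *Selenbp2* had the widest gap between genotypes of the 10. *Hsd3b5* (ENSMUSG00000038092, GRCm38 chr3:98618634-98630252, minus strand) encodes a steroid-metabolizing reductase of male mouse liver. It had 984 and 1328 normalized read counts in fasted control mice, 1199 and 2394 after sucrose, and 4518 and 820 after fructose. Its values under the MED13-LKO label were 37.2 and 56.7, 101 and 49.8, and 12.8 and 29.0. The highest mouse labelled MED13-LKO was far below the lowest control mouse. The log2 difference was -4.61 fasted, -4.56 with sucrose and -6.56 with fructose (SE 0.71 each), and -5.24 (SE 0.41) on average. Without control fructose mouse 1 it was -5.33 with fructose and -4.83 on average.

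*Selenbp2* (ENSMUSG00000068877, GRCm38 chr3:94693556-94704413, plus strand), a selenium-binding protein gene, had 3857 and 3104 normalized read counts in fasted control mice, 1958 and 2231 after sucrose, and 13872 and 1543 after fructose. In mice labelled MED13-LKO all 6 values lay between 50.8 and 70.6. The 2 control fructose mice were the highest and the lowest of the 6 control mice, and both were far above every mouse labelled MED13-LKO. The log2 difference was -5.64 fasted, -5.08 with sucrose and -6.29 with fructose (SE 0.73 each), and -5.67 (SE 0.42) on average, and without control fructose mouse 1 it was -4.71 with fructose and -5.14 on average. That mouse also set the sign of the response to fructose in control mice, which was 0.42 (SE 0.73, adjusted p = 0.777 in limma) with it and -1.16 (adjusted p = 0.0204) without it. Without control fructose mouse 2 in its place the response was 2.003 (adjusted p = 0.000708), so leaving out either mouse gave a call, in opposite directions. The response to sucrose in control mice was -0.73 (adjusted p = 0.583 in limma), and it was called without either of those mice (adjusted p = 0.0224 and 0.0203). The average response to both sugars was called without mouse 1 (-0.57, adjusted p = 0.00449). Without mouse 2 *Selenbp2* in control mice was higher after fructose than after sucrose (2.73, adjusted p = 0.000601) and the responses to fructose differed between genotypes by -2.24 (adjusted p = 0.00927), neither of which was called with all libraries (adjusted p = 0.733 and 0.89). Neither *Hsd3b5* nor *Selenbp2* was called for feeding with all libraries, with average responses of 0.18 (SE 0.44) and -0.18 (SE 0.44).

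Both genes have close copies, and reads can be divided among them. Of the 31-base subsequences of *Hsd3b5* 34.1% also occur elsewhere, and most of these (25.6% of its subsequences) are found in *Hsd3b4*, which is not analysed here, and of those of *Selenbp2* 59.3% occur in *Selenbp1*. Among the related genes analysed, *Hsd3b3* was lower in mice labelled MED13-LKO by a log2 difference of -1.60 (SE 0.09, adjusted p = 2.14e-06 in limma), *Hsd3b2* was higher by 0.44 (SE 0.08, adjusted p = 0.00358), and *Selenbp1* had -0.23 (SE 0.09, adjusted p = 0.0817). Summed, *Hsd3b2*, *Hsd3b3* and *Hsd3b5* had between 5397 and 9987 normalized read counts in control mice and between 2683 and 4126 in mice labelled MED13-LKO, a log2 difference of -1.17, and this sum does not account for reads divided between *Hsd3b5* and *Hsd3b4*. *Selenbp1* and *Selenbp2* summed to between 6632 and 19040 and to between 4692 and 6278, a difference of -0.91. The sums did not overlap between the genotypes either, and their gaps were far narrower than those of the single genes.

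**Figure D3:**
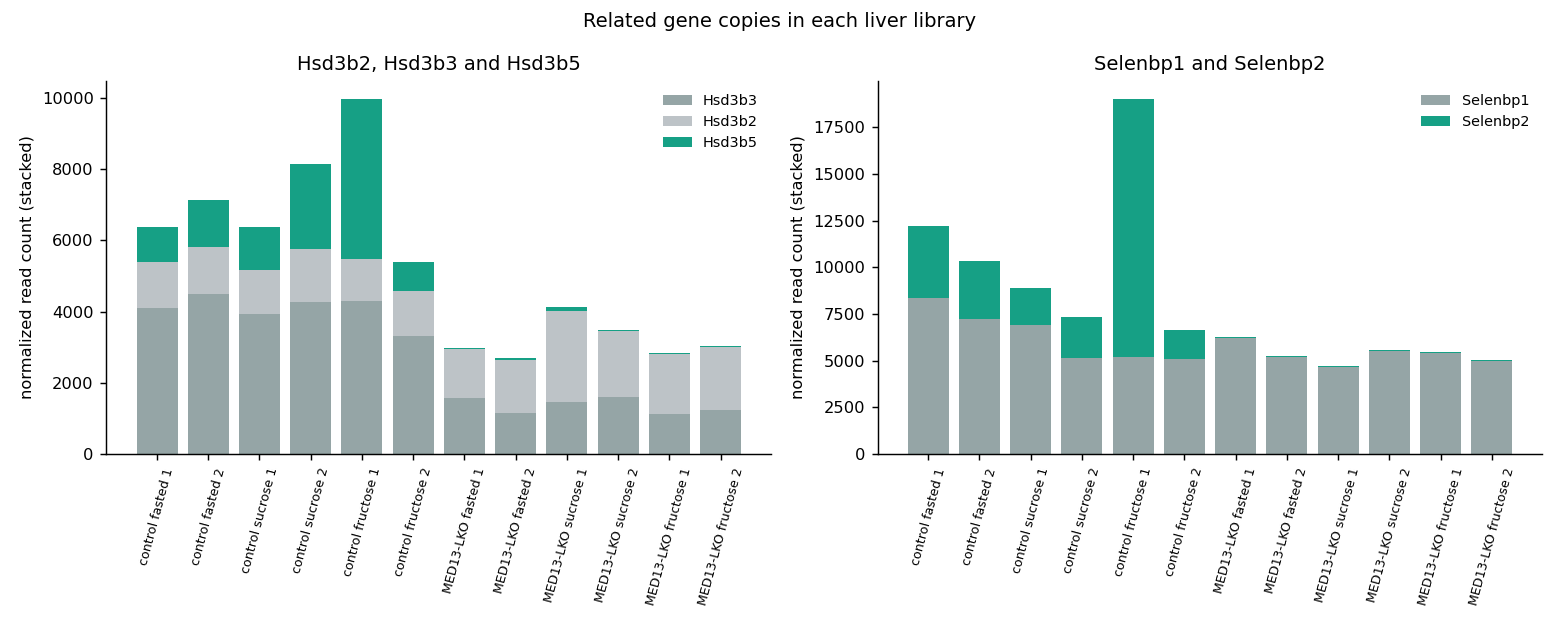
Stacked normalized read counts of *Hsd3b3*, *Hsd3b2* and *Hsd3b5* (left) and of *Selenbp1* and *Selenbp2* (right) in each of the 12 libraries. The green part, *Hsd3b5* or *Selenbp2*, is nearly absent in mice labelled MED13-LKO, while the grey parts remain, and control fructose mouse 1 has the tallest bar in both panels.

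Across all 3 feeding states, 4 of the 10 genes (*Ghr*, *Igf1*, *Hsd3b5* and *Selenbp2*) had every mouse labelled MED13-LKO below every control mouse, as did 4.93% of all genes tested, and 1 (*Cux2*) had every one above, as did 3.92% of all genes. The 5 others overlapped. Within a feeding state, with 2 mice against 2, such a gap is common. When fasted, 5 of the 10 were higher (28.9% of all genes) and 4 lower (28.1%). With sucrose 2 were higher (26% of all genes) and 4 lower (27.2%), and with fructose 2 were higher (25%) and 7 lower (25.2%). These counts describe the genes and follow from how they were listed.

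**Figure D4:**
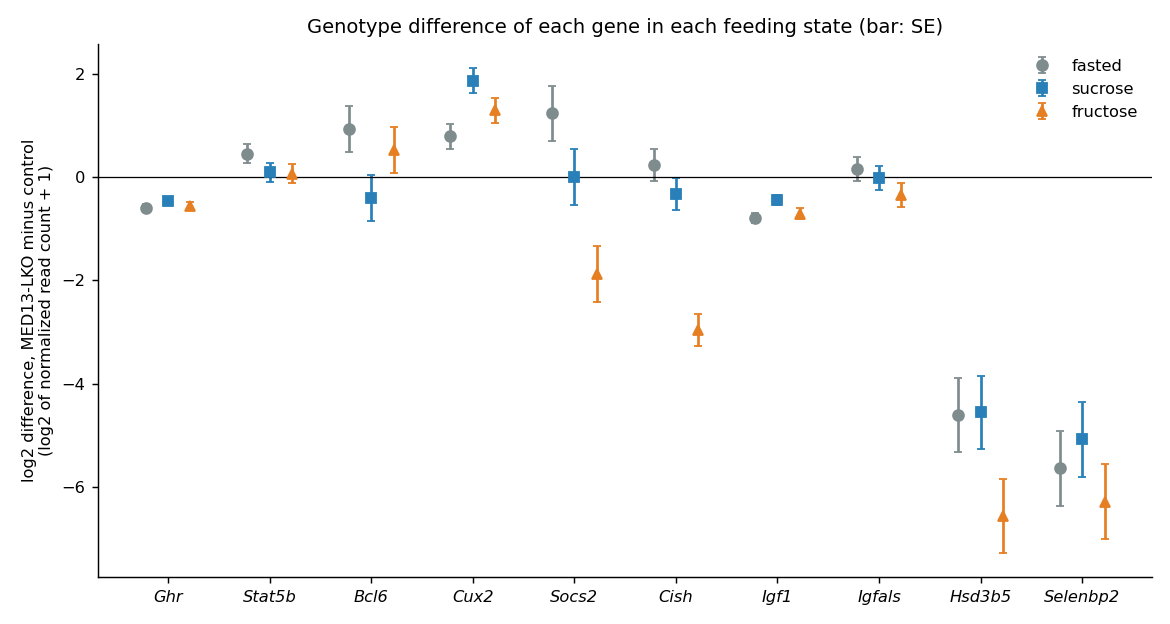
Log2 difference of mice labelled MED13-LKO from control mice for the 10 genes, fasted (circles), with sucrose (squares) and with fructose (triangles), with standard errors from limma and 2 mice per group. *Hsd3b5* and *Selenbp2* lie between -4.56 and -6.56, *Cux2* lies above 0 in each state, and *Cish* and *Socs2* fall below 0 with fructose.

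In the tests of feeding between 0 and 3 of the 10 genes were called. With sucrose 1 of 10 was called in control mice (*Cish*, 8.57% of all genes called in either direction) and 2 of 10 in mice labelled MED13-LKO (*Cish* and *Bcl6*, 5.71%). With fructose 1 of 10 was called in control mice (*Cish*, 5.6%) and 0 of 10 in mice labelled MED13-LKO (6.53%), where *Socs2* alone had an unadjusted p under 0.05 in limma. Averaged over sugars and genotypes 3 of 10 were called (*Cish*, *Igfals* and *Bcl6*, 21.8% of all genes). Fructose against sucrose called 0 of 10 in control mice (0.0404%; 0 at an unadjusted p under 0.05 in limma) and 1 of 10, *Cish*, in mice labelled MED13-LKO (0.0404%), where 5 of 10 had an unadjusted p under 0.05. The genotypes' responses differed for 0 of 10 genes with sucrose (0.146% of all genes called) and for 0 of 10 with fructose (0.0243%), and 2 of 10 had an unadjusted p under 0.05 in limma in each: *Cux2* and *Igf1* with sucrose, and *Cish* and *Socs2* with fructose.

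Liver genes known to differ between male and female mice, which respond to the pattern of growth hormone release, moved in opposite directions under the MED13-LKO label. Averaged over the feeding states, 12 of 22 male-biased genes were lower and 0 higher (13.2% of all genes called lower, 12.1% higher), with a median log2 difference of -1.22 against 0.01 over all genes; with equal sums 12 were lower and 1 higher. Of the female-biased genes 9 of 13 tested were higher and 0 lower, with a median of 1.52. The lists were chosen with results of these libraries known, so the counts are no independent evidence of their direction. A further 7 female-biased genes were under the filter, and *A1bg*, which controls express at 0 to 2.2 normalized read counts, passed it only through the mice labelled MED13-LKO; without it 8 of 12 were higher, with a median of 1.36. *Moxd1* among the male-biased genes passed only through control mice and was not called.

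Among the male-biased genes, *Mup7*, a major urinary protein gene, had between 111473 and 482992 normalized read counts in control mice and between 649 and 4685 in mice labelled MED13-LKO (log2 difference -7.27, SE 0.46, adjusted p = 5.79e-06 in limma). *Serpina12*, which encodes the adipokine vaspin, had between 224 and 862 in control mice and between 18.6 and 35.4 in mice labelled MED13-LKO (-3.68, SE 0.29, adjusted p = 2.25e-05). *Mup3* (-2.43), the fatty acid elongase gene *Elovl3* (-2.11), *Nat8* (-1.57) and *Susd4* (-1.54) were the others of the 6 with the widest gap. *Elovl3* was high in the 2 fasted control mice only (269 and 391.6, against 15.5 to 63.0 in fed control mice).

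Among the female-biased genes, *Cyp2a4*, a steroid hydroxylase gene, had between 11.2 and 39.6 normalized read counts in control mice and between 2256 and 6576 in mice labelled MED13-LKO (log2 difference 7.78, SE 0.21, adjusted p = 1.16e-08 in limma). *Cyp2c40*, another cytochrome P450 gene, ranged from 7.92 to 393 in control mice and from 1234 to 3923 in mice labelled MED13-LKO (5.42, SE 0.79, adjusted p = 0.000979). *Slc22a26* (3.93), *Cyp2c69* (3.72) and *Slc22a27* (2.56), the latter from an organic anion transporter family, were also higher. *A1bg* had between 7.43 and 43.1 in mice labelled MED13-LKO. Many of these genes share sequence with copies, 90% for *Mup7*, 58.9% for *Cyp2a4* and 72.6% for *Cyp2c40*. Among genes that share under 10%, 7 of 10 male-biased genes were lower and 2 of 5 female-biased genes higher, a limit added after seeing the data.

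**Figure D5:**
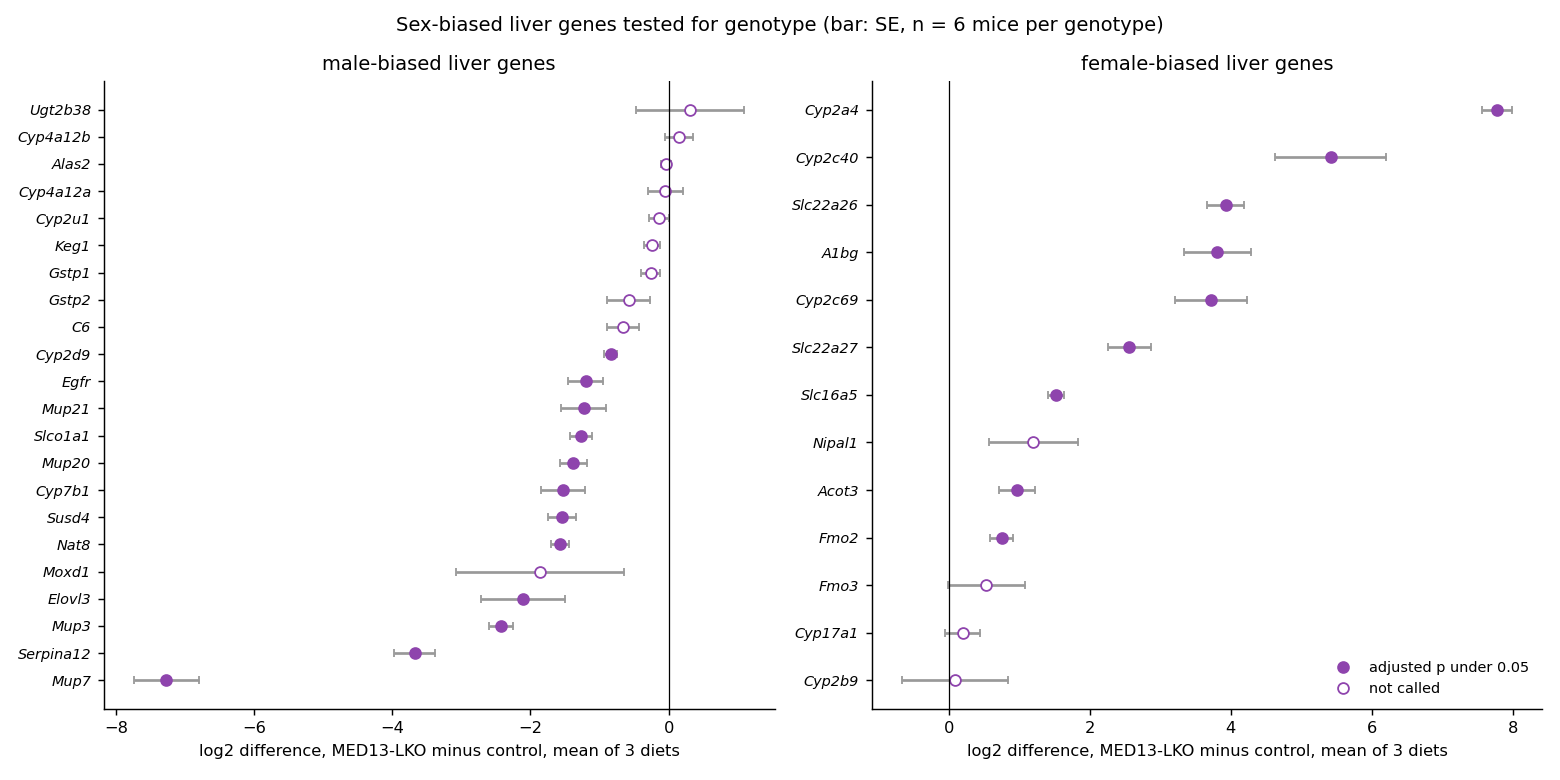
Log2 difference of mice labelled MED13-LKO from control mice, averaged over the 3 feeding states, for the male-biased (left) and female-biased (right) liver genes tested, with standard errors from limma; filled points are called at an adjusted p under 0.05. The 12 filled male-biased genes all lie below 0 and the 9 filled female-biased genes all lie above 0. *A1bg*, 1 of these 9, passed the filter only through the mice labelled MED13-LKO.

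Within each feeding state, which is a part of that average, the called genes went in the same directions. Called or not, 19 of the 22 male-biased genes were below 0 when fasted, 14 with sucrose and 22 with fructose. Over all genes the median log2 difference was 0.013, 0.000 and -0.000. The count with fructose rests on control fructose mouse 1. For *Cyp4a12a*, *Cyp4a12b*, *Ugt2b38*, *Gstp2* and *Alas2* both fructose-fed mice labelled MED13-LKO were above control fructose mouse 2. Of the 13 female-biased genes 12 were above 0 in each state. Male-biased genes were called lower for 8 of 22 when fasted (4.86% of all genes), 5 of 22 with sucrose (3.33%) and 10 of 22 with fructose (3.95%), and 0 were called higher in any state. Female-biased genes were called higher for 7 of 13 when fasted (4.12% of all genes), 6 of 13 with sucrose (2.7%) and 7 of 13 with fructose (3.74%), and 0 were lower. Without *A1bg*, which passed the filter only through the mice labelled MED13-LKO, these counts were 6, 5 and 6 of 12. Leaving out control fructose mouse 1 or 2, which leaves 1 mouse in that group, moved these counts, and not every call kept its direction. When either was left out, the male-biased genes called when fasted were no longer all lower. Without mouse 1 the same was true of the male-biased genes on average, and the female-biased genes called with fructose were no longer all higher. Fitted to the fructose groups alone, 1 male-biased gene was called lower. Feeding moved fewer of them, with 2 male-biased genes higher and 1 lower and 2 female-biased genes lower on average (10.7% of all genes called higher, 11% lower).

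Other genes of growth hormone signalling differed little between genotypes. Of 15 tested, 1 was higher and 1 lower (12.1% and 13.2% of all genes). The prolactin receptor gene *Prlr* was higher (log2 difference 0.57, SE 0.17, adjusted p = 0.0351 in limma), *Stat3* was lower by -0.20 (SE 0.06, adjusted p = 0.0443) and 13 were not called, with a median of 0.04; with libraries rescaled to equal sums 9 were higher, 0 lower, and *Stat3* had 0.11. With feeding 2 of the 15 were higher and 2 lower (10.7% and 11% of all genes), and with equal sums 3 were higher and 1 lower. *Irs2*, an insulin receptor substrate gene that insulin represses, fell by 2.19 (SE 0.17, adjusted p = 4.77e-05), and *Stat3* fell by 0.28 (SE 0.07, adjusted p = 0.0172), a call that was lost with equal sums (-0.17, adjusted p = 0.131). The STAT inhibitor gene *Socs3* rose by 0.44 (SE 0.14, adjusted p = 0.0467 in limma), but not with fructose under the MED13-LKO label. It had 124 and 146 normalized read counts in fasted mice of that label, 189 and 243 after sucrose, and 94.6 and 102 after fructose. Control mice had 122 and 97.4, 182 and 191, and 231 and 149. The phosphatase gene *Ptpn1* rose by 0.36 (SE 0.09, adjusted p = 0.0209).

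Of 11 other genes of the insulin-like growth factor system, 5 were lower (13.2% of all genes) and 1 higher (12.1%) under the MED13-LKO label, with a median of -0.29; with equal sums 3 were lower and 3 higher, and *Igfbp4* changed sign. The binding protein gene *Igfbp1* had 4236 and 4703 normalized read counts in fasted control mice and 1239 and 2860 in fasted mice labelled MED13-LKO (averaged difference -1.32, SE 0.37, adjusted p = 0.0257 in limma). *Igf2* (-1.02), *Igfbp2* (-0.95), *Igfbp5* (-0.66) and *Igfbp4* (-0.29) were the other genes called lower, and the scavenger receptor gene *Igf2r* (0.21) was higher. *Igf2* was near the filter, at 8.47 to 23.0 normalized read counts in control mice and 5.15 to 9.65 in mice labelled MED13-LKO. It passed only through control mice and shares 63.1% of its subsequences with other genes. With equal sums *Igf2* was not called (-0.74, adjusted p = 0.067 in limma). *Igfbp1*, which insulin represses, fell with feeding by 4.43 (SE 0.39, adjusted p = 7.42e-05).

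Of 16 transcription factors that act with STAT5 in liver or with sex hormones, 6 were lower (13.2% of all genes) and 1 higher (12.1%) on average; with equal sums 1 was lower and 8 higher. Within the feeding states 0 were called lower when fasted, 0 with sucrose and 4 with fructose, and the difference in response between genotypes was called for 0 of the 16 with either sugar. The estrogen receptor gene *Esr1* was higher in each feeding state, with between 279 and 385 normalized read counts in control mice and between 453 and 814 in mice labelled MED13-LKO (log2 difference 0.98, SE 0.12, adjusted p = 0.000383 in limma). *Nr1i3*, the gene of the xenobiotic receptor CAR, was lower (-0.90, SE 0.18, adjusted p = 0.00642), as were *Cebpb* (-0.57), *Foxa2* (-0.49), *Foxa3* (-0.45) and *Rxra* (-0.33). When fasted *Foxa2* had 324 and 241 normalized read counts in control mice and 314 and 317 in mice labelled MED13-LKO, and with fructose 1153 and 687 against 412 and 376. With equal sums *Nr1i3* and *Esr1* were called in the same direction and the 4 others were not called. *Nr1i3* shares 68.1% of its subsequences with *Tomm40l*. With feeding 6 of the 16 rose (10.7% of all genes) and 4 fell (11%), and with equal sums 6 rose and 2 fell. *Foxa2*, a pioneer factor of hepatocytes, rose 2.36-fold (SE 0.14 on the log2 scale, adjusted p = 0.000397), and *Cebpb* fell by 1.38 (SE 0.17, adjusted p = 0.000569).

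Genes linked to fasting were read as a check of the feeding state. Of 8 tested, 5 fell with feeding (11% of all genes): *Igfbp1*, *Foxo1*, *Klf15*, *Foxo3* and *Sirt1*. They fell by between 0.79 and 4.43 on the log2 scale. On average 1 rose (10.7% of all genes): *Fgf21*, a hepatic hormone that sugars and fasting induce. *Fgf21* had 1.13 and 4.82 normalized read counts in fasted control mice, 25.1 and 73.5 after sucrose, and 16.6 and 25.8 after fructose, and in mice labelled MED13-LKO it had 50.7 and 34.4, 90.2 and 30.3, and 33.5 and 39.8. The 2 fasted control mice were below the 10 other mice. The averaged rise was 1.602 on the log2 scale (SE 0.41, adjusted p = 0.0207 in limma), with responses of 3.65 to sucrose (adjusted p = 0.0103) and 2.63 to fructose (adjusted p = 0.0518) in control mice and of 0.32 and -0.19 (adjusted p = 0.842 and 0.904) in mice labelled MED13-LKO; the differences between these responses were not called (adjusted p = 0.37 and 0.442). Between genotypes *Fgf21* was called higher when fasted (3.60, SE 0.67, adjusted p = 0.0103) and not with sucrose (adjusted p = 0.876) or fructose (adjusted p = 0.531). Of the 8 genes, 1 was higher between genotypes on average (12.1% of all genes) and 2 were lower (*Igfbp1* and *Klf15*, 13.2%).

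The genes whose levels followed each of the 10 most closely over the 12 libraries are given as a description, by Pearson's r on the log2 scale among 12365 other genes. For the genes that separate the genotypes the r rests on that separation. *Ghr* was followed by *Asgr1* and *Haao* (r = 0.99 each), *Igf1* by *Gjb1* (0.983) and *Hist2h2aa2* (0.975), *Hsd3b5* by *Adh4* (0.983) and *Slco1a1* (0.977), *Selenbp2* by *Mup1* (0.985) and *Serpina12* (0.984), and *Cux2* by *Aplp1* (0.951) and *Lgals1* (0.949). *Cish* was followed by *Phlda1* (0.979) and *Vac14* (0.922), *Socs2* by *Epb41l4b* (0.887) and *Rprd1b* (0.877), *Igfals* by *Ints4* (0.902) and *Mrpl43* (0.891), *Bcl6* by *Traf7* (0.938) and *Gm14226* (0.91), and *Stat5b* by *Slc9b2* (0.884) and *Slc45a3* (0.876).

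*Phlda1*, a gene with a pleckstrin homology-like domain, had the values most like those of *Cish*. In control mice it had 420 and 471 normalized read counts in the fasted state, 3135 and 2332 after sucrose, and 2583 and 1677 after fructose. The mice labelled MED13-LKO had 464 and 408 in the fasted state, 1775 and 2461 after sucrose, and 426 and 433 after fructose. The fructose-fed mice of that label lay within the range of the fasted mice of both genotypes.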

How the data were processed

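Liver RNA was sequenced from 12 mice as paired-end reads. Per the labels, the authors used Trim Galore 0.6.5 for trimming and kallisto 0.46.0 to estimate transcript counts, named mm10 as the build and deposited counts per gene normalized with DESeq2 1.24.0, a signal that is not a whole count. Low values lay on whole multiples (within 0.02) of a step per library for 66.1% to 95.8% of values in genes with a single transcript, but for only 38.3% to 54% over all genes, so counts were not recovered and no count test was run.

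For 12366 genes the deposited values were put on the scale log2(normalized count + 1), and 1 model with 6 groups was fitted in limma 3.58.1 (R 4.3.3) with a trend. The fit was tested on simulated data. The 10 genes and all lists were chosen with earlier results of these data known. Of other lists, the 6 genes with the widest averaged genotype gap among those called, then those called for feeding, are named. Groups and replicate numbers came from sample titles. The p-values rest on the spread between 2 mice per group, pooled over the 6 groups and drawn towards the trend over all genes. They do not measure the spread of the compared groups alone. Sequence sharing and positions used GENCODE M21. Alternatives were pseudocounts of 0.1 and 10, no filter, equal 75th percentiles, equal sums, the replicate number as a block, only the compared groups, and each mouse left out. Columns not mapped to a sample numbered 0, and *Xist*, *Hsd3b1*, *Hsd3b4* and *Hsd3b6* were not analysed here. Python 3.11.15 was used.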

Additional observations from a re-analysis of the deposited data

How the results depend on the processing

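Rescaling to equal sums changed the averaged genotype calls over all genes from 1493 higher and 1634 lower to 7109 and 405, and with 1 library left out they were 1066 to 1548 higher and 1250 to 1704 lower. With 1 library left out in turn (the lone mouse left in its group is assumed to vary like the others), the averaged genotype counts were 10 to 16 male-biased genes lower, 7 to 10 female-biased genes higher, and 0 to 2, 3 to 7 and 4 to 11 genes called of growth hormone signalling, the insulin-like growth factor system and the partner factors. Within fasted, sucrose-fed and fructose-fed mice 4 to 10, 3 to 8 and 7 to 16 male-biased genes were lower and 3 to 7, 2 to 8 and 3 to 8 female-biased genes higher. The highest fructose count of 16 was without control fructose replicate 2, and the lowest female-biased count of 2 without MED13-LKO sucrose replicate 1. Of the 10 genes, 1 to 2 were called with sucrose in control mice, 1 to 2 with sucrose under the MED13-LKO label, 1 to 3 and 0 with fructose, 1 to 4 for feeding on average, 0 to 1 for fructose against sucrose in each genotype, and 0 and 0 to 2 for the differences in response to sucrose and fructose. The feeding counts of the other lists were 1 to 5, 3 to 4, 7 to 12 and 5 to 7. The response of *Selenbp2* to fructose in control mice ranged from -1.16 to 2.003, and it reversed (to -1.16, limma, adjusted p = 0.0204) without control fructose replicate 1 and was called in the first direction (2.003, adjusted p = 0.000708) without control fructose replicate 2.

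Growth hormone signalling genes called for genotype numbered 1 with no filter, 1 with equal 75th percentiles, 9 with equal sums and 1 with the replicate block. Fits of only the compared groups called 13, 9 and 1 male-biased genes lower in fasted, sucrose-fed and fructose-fed mice, and among the 10 genes 3 for sucrose in control mice, 1 for fructose under the MED13-LKO label and 0 for fructose against sucrose under it. Equal sums called 2 insulin-like growth factor genes for feeding, and both equal sums and no filter called 1 of the 10 genes (*Cish*) for the difference in response to fructose. Genes sharing under 10% of their sequence gave 7 male-biased genes lower and 2 female-biased genes higher. Taken alone rather than summed with their copies, *Hsd3b5* and *Selenbp2* had -5.24 and -5.67. Over the counts and sums, 146 of 164 values under these settings stayed within 1.5 times the reported value or the spread between mice.

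The replicate numbers of the sample titles showed no pairing of the mice: deviations of same-numbered mice correlated at -0.142 to 0.078. No source ties a number to a litter or day. The column headers number the fed mice differently from the titles, so pairing of fasted with fed mice by header was not checked. The replicate block called 2 of the 10 genes for sucrose in control mice in place of 1 and left the other counts of the 10 genes as they were. With the numbers of the fructose-fed mice labelled MED13-LKO crossed, a pairing added after seeing the data, the genotype difference with fructose called 427 genes higher and 492 lower, against 463 and 488 with no block.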
